A study of Bos taurus with 27 samples.

Results

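The colon of calves first fed colostrum 6 h after birth (TRT6) was compared with the colon of calves fed immediately after birth (TRT0). The members are the 9 TRT6 and the 9 TRT0 calves, 18 of the 27 calves with RNA-seq in the study, and the remaining 9 calves were first fed at 12 h. All calves were newborn male Holstein calves, a dairy breed of Bos taurus, and colon tissue was taken from every calf at 51 h of age. The interval from the first colostrum meal to sampling was therefore 51 h in TRT0 and 45 h in TRT6. In each treatment 4 calves had a heifer at first calving as dam (H) and 5 a cow that had calved before (C), and dam parity was a term in every main fit. The study's methods state that every calf received a single tube-fed meal from the same pooled and pasteurized colostrum, in proportion to its birth weight, and milk replacer from a fixed time after that meal. Both the colostrum and the first milk replacer were therefore later in TRT6. With sampling at 51 h in every calf, the time on milk replacer was shorter in TRT6. The amount of milk replacer taken may thus differ between the treatments along with the time of feeding. No calf was left unfed, so the comparison is not between fed and unfed calves. The calves were assigned to treatments at random, kept apart from their dams, and each library is from 1 calf. A rinsed colon segment from beyond the ileo-cecal junction was ground, so the values are averages over all its layers.

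Newborn calves have almost no circulating antibody, and colostrum supplies immunoglobulin G, growth factors, hormones and nutrients in the first hours of life. The small intestine takes up intact protein only for a short period after birth. The colon receives what the small intestine leaves, absorbs water and salt through apical exchangers and the sodium pump, forms a mucus and junctional barrier, and houses the first resident bacteria. The study asked whether a delay of the first meal alters gene expression in this tissue.

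Deposited totals lay between 1721538 and 2473396 counts in TRT0 (median 2257342) and between 1163791 and 2949345 in TRT6 (median 1814105). These totals are far below the reads per sample that the study reports, for a reason not given in its methods. The means differed by -308496 counts (TRT6 minus TRT0, exact two-sided permutation within parity, p = 0.199). The SD between calves was 247109 in TRT0 and 628256 in TRT6, and the shallowest libraries were of TRT6. A level of 3 counts, taken as the floor below which a gene cannot be told from absent, was worth 1.02 to 2.58 CPM (a gene's count scaled to a library total of 1e6). No 2 of the 153 pairs of calves had counts that agreed within sampling noise. The calves were sequenced in 3 lanes, and the lanes were shared unevenly, with 2, 5 and 2 of the TRT0 calves and 5, 3 and 1 of the TRT6 calves in lanes 1, 2 and 3. Lane accounted for 17.6% of the variance among the 18 profiles, dam parity for 6.49% and treatment for 5.06%. Such a share grows with the number of groups even for labels without effect. Lane has the most groups, so its share is not directly comparable with those of parity and treatment. Along the direction of greatest spread among the profiles (19.8% of the variance), lane accounted for 41.9%, dam parity for 8.9% and treatment for 3.03%. Because the lanes were unevenly shared, the fits of treatment and of its interaction with parity were repeated with lane as a covariate. The fits within H and within C and the sums of cell type markers were not. Markers of absorptive epithelium (14 with an identifier, summed CPM 3625 to 5610 over the 18 calves) and of smooth muscle (12 with an identifier) were present in every calf, but both also mark the small intestine. The 5 markers of small intestinal epithelium with an identifier, led by ANPEP, summed to 192 to 1328 CPM.

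No gene passed the call rule of the study, an adjusted p of at most 0.10 with a fold change of at least 1.2. Of 24616 listed genes, 14175 reached a CPM of 1 in at least 5 of 9 calves on both sides and were tested, and 0 were called (0%) by the quasi-likelihood test of edgeR with adjustment after Benjamini-Hochberg. At an unadjusted p under 0.05 there were 463 genes (3.27%), of which 226 (1.59% of the genes tested) were fitted higher and 237 (1.67%) lower in TRT6. That share of 3.27% is below the 0.05 that would pass on average if no gene differed. With library totals in place of TMM factors the split was 137 higher and 255 lower. The count at this p was 401 by DESeq2, 478 by edgeR's likelihood ratio test and 480 by limma-voom, and each of these called 0 genes. The count was 703 without TRT6 replicate 8, and in no gene tested (0%) were the CPM values of the treatments free of overlap.

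The fitted differences were small. The median log2 fold change (TRT6 minus TRT0) of all genes was 0.01, with quartiles at -0.11 and 0.11. The 95% interval of the difference lay inside a 2-fold change in either direction for 12459 genes (87.9%), and the bounds of the interval lay a median of 0.36 on the log2 scale from its centre, a 1.28-fold change. Precision followed the level of the gene. Among the 5396 genes with a mean of 20 to 100 CPM, the interval lay inside 2-fold for 98.9%, and among the 2531 genes under 5 CPM for 46.0%. A fitted difference of 2-fold or more was seen in 42 genes, 21 of them under a mean of 5 CPM, and 28 of them had an unadjusted p under 0.05.

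**Figure D1:**
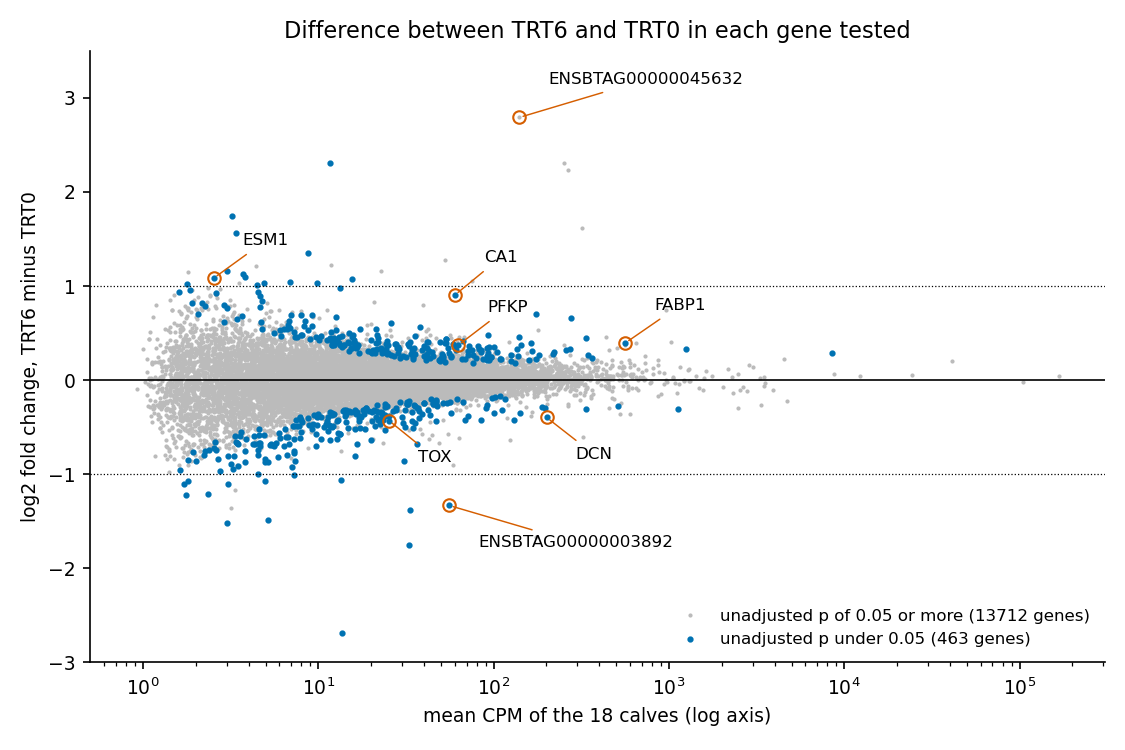
Each point is 1 of the 14175 genes tested, with its mean CPM over the 18 calves on a log axis and its fitted log2 fold change (TRT6 minus TRT0) on the vertical axis. The 463 genes at an unadjusted p under 0.05 are blue, dotted lines mark 2-fold, named genes are ringed, and the spread of the points is widest below 5 CPM.

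The gene of lowest unadjusted p was TOX (ENSBTAG00000004954), a nuclear factor best known from T cell development. Its level was 22.1 to 37.2 CPM (median 28.3) in TRT0 and 16.6 to 27.1 CPM (median 21.4) in TRT6. The ranges overlapped, but 6 of 9 TRT6 calves lay below the lowest TRT0 calf and none above the TRT0 median. The log2 fold change was -0.43 ± 0.10 (SE, 9 calves in each group), with an unadjusted p of 0.000326 and an adjusted p of 1.0 (edgeR quasi-likelihood, Benjamini-Hochberg). Every other gene named here also had an adjusted p of 1.0 in that fit, to 3 digits, so any p from here on is unadjusted unless said otherwise. TOX kept a difference of -0.43 with lane in the fit and of -0.47 in H and -0.40 in C calves.

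Among the genes of lowest p fitted lower in TRT6 were 3 products of connective tissue. DCN, which encodes the collagen-binding proteoglycan decorin, had 165.5 to 275 CPM (median 241) in TRT0 and 134 to 231 CPM (median 154) in TRT6. No TRT6 calf reached the TRT0 median, and 5 lay below the lowest TRT0 calf (log2 fold change -0.40 ± 0.13, 95% interval -0.66 to -0.13). OGN, another small matrix proteoglycan (osteoglycin), had medians of 83.0 CPM in TRT0 and 63.5 CPM in TRT6 (-0.38 ± 0.13), and DPT, the matrix protein dermatopontin, had medians of 96.0 and 67.8 CPM (-0.43 ± 0.15). With lane in the fit the differences of DCN, OGN and DPT were -0.34, -0.31 and -0.32. The other genes of this set were PAAF1 (-0.49), a factor that binds the proteasome, LOC522763 (-1.48), the lactate transporter SLC5A12 (-0.92), HSF2BP (-0.91) and the peptidase neurolysin, NLN (-0.34). LOC522763, SLC5A12 and HSF2BP had medians of 2.37 to 7.83 CPM in each treatment, close to the level that 3 counts allow. In TRT0, LOC522763 reached 24.0 CPM in H calves and at most 5.66 CPM in C calves. Its difference was -2.06 in H and -0.86 in C.

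The 10 named genes of lowest p fitted higher in TRT6 were led by LOC512150, with 3.67 to 9.07 CPM (median 5.76) in TRT0 and 5.34 to 25.8 CPM (median 11.9) in TRT6. PFKP (ENSBTAG00000002683), the platelet-type phosphofructokinase of glycolysis, followed with 42.1 to 70.2 CPM (median 53.7) in TRT0 and 48.7 to 93.3 CPM (median 70.5) in TRT6. The PFKP ranges overlapped, 8 of 9 TRT6 calves lay above the TRT0 median, and the fold was 1.29 (log2 fold change 0.37, 95% interval 0.15 to 0.59). HN1L had 44.1 to 60.5 CPM (median 55.9) in TRT0 and 56.4 to 87.8 CPM (median 64.6) in TRT6, and all 9 TRT6 calves lay above the TRT0 median (0.34, 95% interval 0.14 to 0.54). CHP2, a calcineurin-like cofactor of sodium-proton exchangers that is abundant in intestinal epithelium, had medians of 127.5 CPM in TRT0 and 153 CPM in TRT6 (0.37 ± 0.11). The set also held the mitochondrial import cofactor GRPEL1 (0.41), the tetraspanin TSPAN14 (0.32), TCF19 (0.48), the endothelial secreted protein ESM1 (1.08), the lipid flippase ATP10B (0.34) and TMEM176B (0.48). ESM1 was near the floor, with medians of 1.32 and 3.14 CPM. Each of these genes, in both directions, had the same sign with lane in the fit and in H and C calves taken separately.

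**Figure D2:**
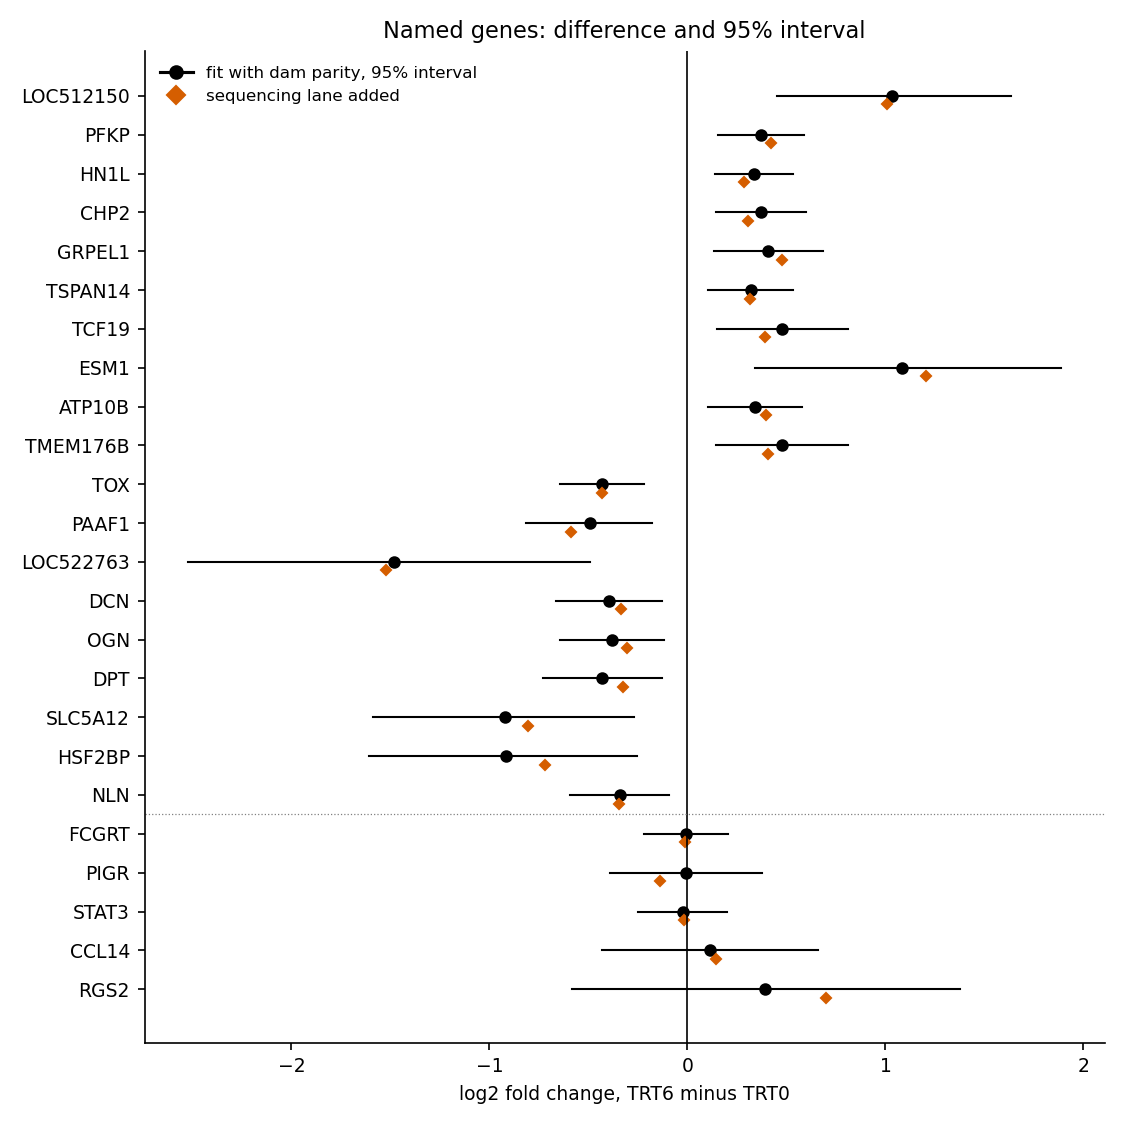
Black points are fitted log2 fold changes (TRT6 minus TRT0) with 95% intervals for named genes of lowest p, 10 fitted higher and 9 fitted lower, and below the dotted line for FCGRT, PIGR, STAT3, CCL14 and RGS2. Orange diamonds give the fit with lane added, which keeps the sign of every gene shown, and the intervals of the lower 5 genes include 0.

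The 5 lowest p of all genes included 4 genes without a symbol in the tables used, all fitted lower in TRT6. ENSBTAG00000003892 had 12.5 to 149 CPM (median 84.2) in TRT0 and 13.7 to 65.1 CPM (median 18.1) in TRT6, and no TRT6 calf reached the TRT0 median, though the lowest calf of all was a TRT0 calf. Its log2 fold change was -1.33 ± 0.36 and became -1.77 with lane in the fit. In lane 1 the medians were 96.4 CPM in TRT0 and 41.6 CPM in TRT6, and in lane 2 they were 84.2 and 18.1 CPM. When all 27 calves and lane were fitted together, a fit chosen after the values were seen, this gene alone was called, at -1.88 with an adjusted p of 0.053 (edgeR quasi-likelihood, Benjamini-Hochberg; 0.053 to 1.0 over the alternatives). ENSBTAG00000033089 (-0.87), ENSBTAG00000015692 (-0.77) and ENSBTAG00000019076 (-0.996) had medians of 5.77 to 9.44 CPM in TRT0 and 3.16 to 4.15 CPM in TRT6.

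**Figure D3:**
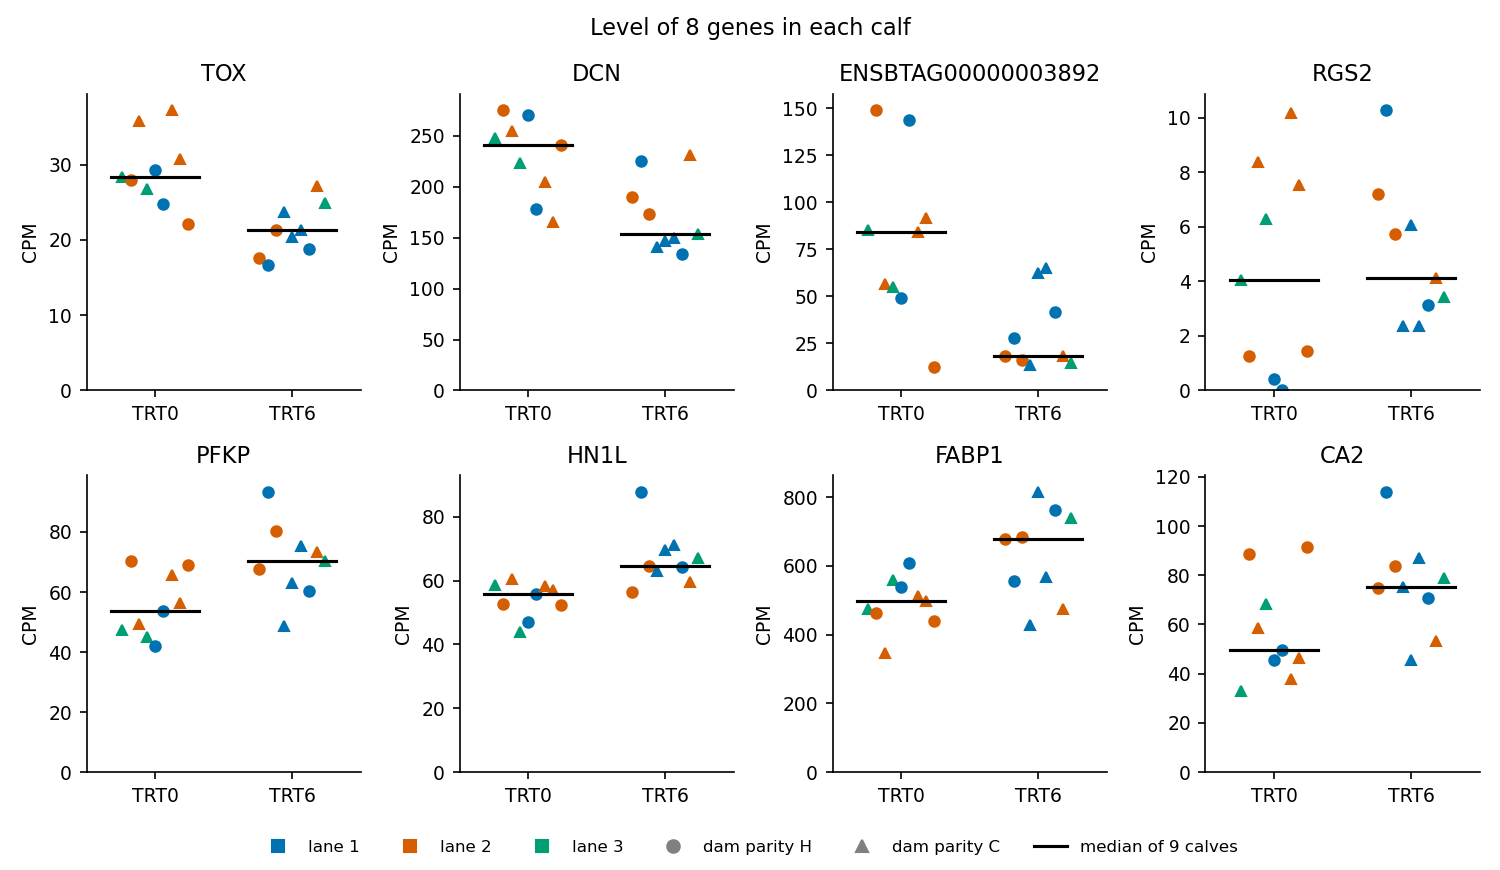
Each point is 1 calf, with CPM on a vertical axis that starts at 0, coloured by lane and shaped by dam parity, and the bar is the median of the 9 calves. TOX, DCN and ENSBTAG00000003892 have lower medians in TRT6, PFKP, HN1L, FABP1 and CA2 have higher ones, the treatments overlap in each gene, and in RGS2 the 4 H calves of TRT0 are the lowest of the 18.

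Most genes of colonic absorption were fitted higher in TRT6. Of 19 tested genes of ion and water transport, 17 were fitted higher (beside 7300 of the 14175 genes tested), 6 at p under 0.05 (beside 1.59% of all genes), and 0 were lower at that p. Every member has a symbol, and of the 3749 tested genes with a symbol 2088 were fitted higher, 79 of them at p under 0.05. The median log2 fold change of the list was 0.23, beside 0.01 for all genes and 0.02 for genes with a symbol. It was 0.20 with lane in the fit, where 5 genes of the list had p under 0.05. None was called, and the list was not tested as a set. Of the 6 genes, CA2 was named by rule, and SLC26A3, CA1 and ATP1B3 are named after their values were seen.

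CA2, the cytosolic carbonic anhydrase that supplies bicarbonate and protons to the exchangers, had 33.2 to 91.6 CPM (median 49.6) in TRT0 and 45.8 to 114 CPM (median 75.4) in TRT6. Its paralog CA1 had 12.5 to 140.0 CPM (median 27.3) in TRT0 and 36.5 to 142 CPM (median 58.4) in TRT6, and 9 of 9 TRT6 calves lay above the TRT0 median. The log2 fold changes were 0.42 (95% interval 0.07 to 0.78) for CA2 and 0.90 (0.10 to 1.71) for CA1. CA1 was at 1.42 without TRT0 replicate 4, its highest TRT0 calf, and at 0.66 with lane in the fit, where CA1 and ATP1B3 were no longer at p under 0.05. The chloride-bicarbonate exchanger of the colonocyte surface, SLC26A3, had medians of 86.9 CPM in TRT0 and 107.5 CPM in TRT6 (0.35 ± 0.15). ATP1B3, a subunit of the sodium pump, had medians of 209 CPM in TRT0 and 228 CPM in TRT6 (0.28 ± 0.13), and the apical sodium-proton exchanger SLC9A3 differed by 0.13 ± 0.14. The chloride channel CFTR and the basolateral cotransporter SLC12A2, which serve secretion, were at 0.02 ± 0.11 (-0.01 with lane) and -0.06 ± 0.12. The count of 6 rested on single calves. It was 2 without any one of TRT0 replicates 2 and 7 and TRT6 replicates 2, 7 and 9, 3 without TRT0 replicate 1 or 3, and 11 without TRT6 replicate 8, and the median lay between 0.16 and 0.29.

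FABP1, the fatty acid binding protein of absorptive cells, had 348 to 609 CPM (median 498) in TRT0 and 427 to 815 CPM (median 677) in TRT6. Of the TRT6 calves, 7 of 9 lay above the TRT0 median, and the log2 fold change was 0.39 (95% interval 0.09 to 0.70) and 0.37 with lane. It was the only 1 of 17 tested genes of short-chain fatty acid uptake, beta-oxidation and ketogenesis at p under 0.05, and the median of that list was 0.07. The monocarboxylate transporter SLC16A1, which carries butyrate into colonocytes, was at 0.02 ± 0.13, and CPT1A, which admits fatty acids to mitochondria, at 0.20 ± 0.10.

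Most genes of connective tissue were fitted lower in TRT6. Of 21 tested genes of collagens and associated matrix, 19 were fitted lower in TRT6 (beside 6875 of the 14175 genes tested), 5 of them at p under 0.05 beside 1.67% of all genes (DCN, COL12A1, COL14A1, LUM and FBN1, of which all but DCN were named after their values were seen) and 0 higher at that p. Of the 3749 tested genes with a symbol, 1661 were fitted lower, 55 of them at p under 0.05. The median log2 fold change of the collagen list was -0.17, and with lane in the fit it was -0.11 with 2 genes, DCN and COL12A1, at p under 0.05. COL12A1, a fibril-associated collagen, had 255 to 541 CPM (median 372) in TRT0 and 206 to 449 CPM (median 264.5) in TRT6, a log2 fold change of -0.30 ± 0.13. FBN1, the microfibril protein fibrillin, had medians of 534 and 415 CPM (-0.27 ± 0.12), and LUM, the proteoglycan lumican, 202 and 165 CPM (-0.29 ± 0.13). COL3A1, the most abundant member and a main fibrillar collagen, had 4244 to 6935 CPM (median 4778) in TRT0 and 3373 to 6426 CPM (median 3974) in TRT6. Although 6 of 9 TRT6 calves lay below the lowest TRT0 calf for COL3A1, the log2 fold change was -0.22 with a 95% interval of -0.49 to 0.04. The basement membrane collagens COL4A1 and COL4A2 were at -0.04 ± 0.13 and 0.01 ± 0.19. The count of 5 was 2 without TRT0 replicate 2 or TRT6 replicate 6 or 7, 3 without TRT0 replicate 1, 3 or 9 or TRT6 replicate 3, 4 or 5, and 10 without TRT6 replicate 8, the TRT6 calf highest in COL3A1.

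Marker sums of cell types differed alongside both lists, and they are not independent of them: the epithelial markers include CA1, CA2 and SLC26A3 of the transport list, and the fibroblast markers include COL1A1, COL1A2, COL3A1, DCN and LUM of the collagen list. The summed CPM of the 14 markers of absorptive epithelium was 3625 to 4894 (median 4339) in TRT0 and 3746 to 5610 (median 4772) in TRT6, a ratio of means of 1.12, and all 14 were fitted higher in TRT6 (4 at p under 0.05, 3 with lane). Beside these, 2088 of the 3749 tested genes with a symbol were fitted higher and 1661 lower, 79 higher and 55 lower at p under 0.05. With library totals in place of TMM factors 12 of the 14 epithelial markers were fitted higher. The general epithelial genes of the list, EPCAM, KRT19 and CDH1, were at 0.02, 0.05 and 0.06, and its leading members were FABP1, CA2, SLC26A3 and CA1. The summed CPM of the 9 fibroblast markers was 10100 to 18260 (median 10990) in TRT0 and 7256 to 16520 (median 9492) in TRT6, a ratio of means of 0.822, and 8 of 9 were fitted lower (3 at p under 0.05, 2 with lane). The 12 smooth muscle markers had a ratio of 0.965, with 5 fitted higher and 7 lower, and the 2 adipocyte markers, LPL and ADIPOQ, had a ratio of 0.668. No marker with an identifier was at 0 in all calves. Within H the epithelial medians were 4157 in TRT0 and 4807 in TRT6, and within C they were 4339 and 4334, while CA1 differed by 1.51 in H and by 0.45 in C. Within lane 1 the epithelial medians were 4432 and 4842, and within lane 2 they were 4345 and 4720. Within lane 1 the fibroblast medians were 10390 in TRT0 and 8912 in TRT6, and within lane 2 they were 13860 and 12880. The adipocyte medians were 311.7 in TRT0 and 133.2 in TRT6 within lane 1, but 302.7 and 296.2 within lane 2. The 4 epithelial genes at p under 0.05 numbered 2 without TRT0 replicate 3 or TRT6 replicate 2 or 7, and the 3 fibroblast genes numbered 6 without TRT6 replicate 8. In ground tissue, fewer cells of a type and less RNA per cell cannot be told apart, and the part of tissue makeup in the differences of both lists was not tested.

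**Figure D4:**
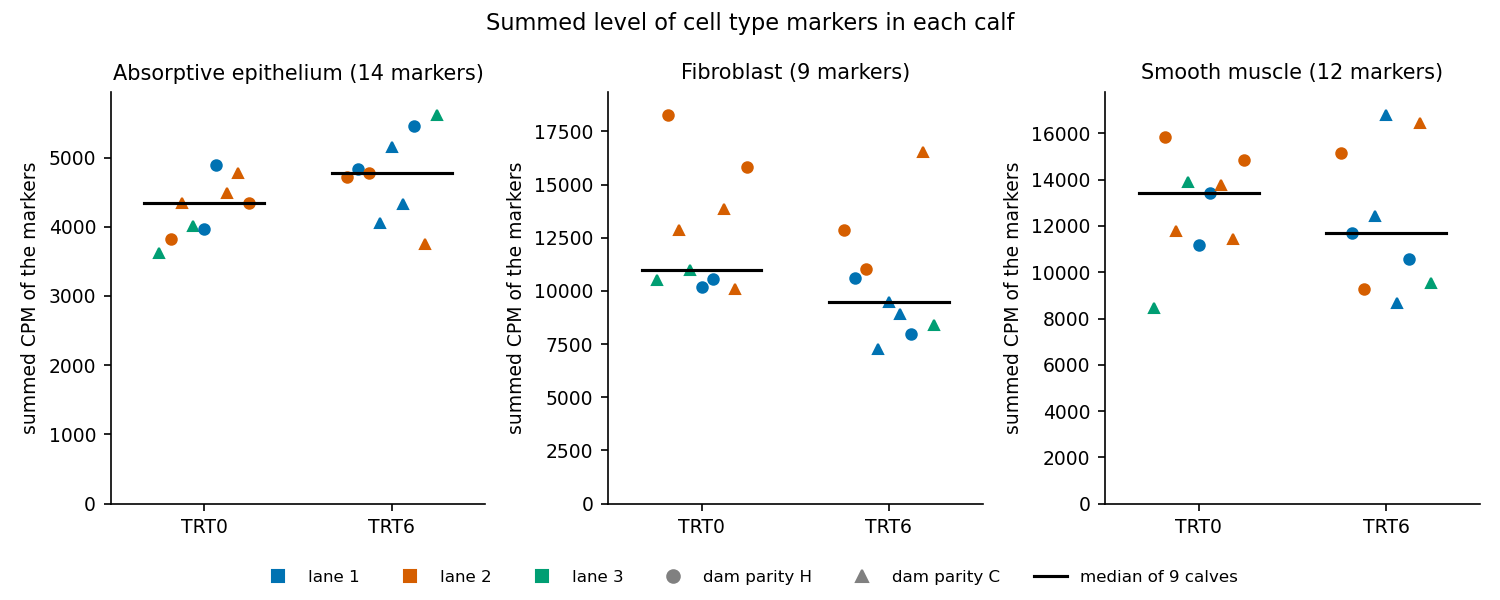
Each point is the summed CPM of the markers of 1 cell type in 1 calf, coloured by lane and shaped by dam parity, and bars are medians of 9 calves on axes that start at 0. The epithelial median is 4339 in TRT0 and 4772 in TRT6, the fibroblast median is 10990 and 9492, the treatments overlap in all 3 panels, and the highest TRT6 fibroblast sum, 16520, belongs to replicate 8.

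Most nuclear genes of energy metabolism were also fitted higher, with smaller medians. Of 36 tested nuclear genes of oxidative phosphorylation, 32 were fitted higher in TRT6, beside 2088 of the 3749 tested genes with a symbol. The median was 0.12 (0.11 with lane). Fitted higher at p under 0.05 were 2, COX4I1 and COX6A1 of cytochrome c oxidase (COX4I1 alone with lane), beside 79 of the 3749. COX4I1 had 143 to 188 CPM (median 159) in TRT0 and 170.2 to 202 CPM (median 185) in TRT6, and all 9 TRT6 calves lay above the TRT0 median (0.22, 95% interval 0.02 to 0.42). The count of 2 was 0 without TRT0 replicate 2 or TRT6 replicate 5 or 9, and 1 without TRT0 replicate 3, 5, 7 or 8 or TRT6 replicate 1, 2 or 7. It was 4 without TRT0 replicate 6 or TRT6 replicate 8 and 5 without TRT0 replicate 9. The 13 mRNAs encoded by the mitochondrion did not share this lean, with 3 fitted higher, 10 lower and a median of -0.06, and COX1, the most abundant of them, was at 0.04 ± 0.13. Of 17 genes of glycolysis and its link to the mitochondrion, 15 were fitted higher (beside the same 2088 of 3749) with a median of 0.13. They were led by PFKP and the enolase ENO1 (0.27 ± 0.13, and 0.23 and no longer at p under 0.05 with lane). PDK1, a kinase that inhibits pyruvate dehydrogenase, was at -0.30 ± 0.17. The 58 cytosolic ribosomal protein genes had a median of 0.03 and a range of -0.11 to 0.21, and the sign of that median turned with library totals or with lane in the fit.

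The 2 antibody receptors did not differ beyond the spread between calves. FCGRT, the neonatal Fc receptor that binds immunoglobulin G, had 121 to 190.5 CPM (median 166) in TRT0 and 133.5 to 184 CPM (median 155) in TRT6, and the log2 fold change was -0.01 with a 95% interval of -0.22 to 0.20. PIGR, the receptor that carries immunoglobulin A to the lumen, had 823 to 1929 CPM (median 1323) in TRT0 and 795 to 1951 CPM (median 1146) in TRT6, with an interval of -0.39 to 0.37 around -0.01. Of the 17 genes listed for antibody transport and brush border uptake, 5 had an identifier, and 0 of these were at p under 0.05. The lowest p among them was that of TMPRSS15, enteropeptidase, at medians of 1.05 and 1.81 CPM.

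The barrier lists held few differences. Of 23 junction genes, 18 were fitted higher in TRT6 (beside 2088 of the 3749 tested genes with a symbol), with a median of 0.06. Of the junction genes 0 were higher at p under 0.05, and JAM2, a junctional adhesion molecule, was fitted lower at that p (-0.28 ± 0.12). The desmosomal plaque protein DSP, the most abundant member, had medians of 507 CPM in TRT0 and 560.5 CPM in TRT6 (0.13 ± 0.10). Of 10 genes of mucus and goblet secretion, CLCA1, a secreted goblet cell protein, was at p under 0.05, with 107 to 421 CPM (median 298) in TRT0 and 185 to 549 CPM (median 409) in TRT6 (0.45, 95% interval 0.03 to 0.86). With lane in the fit CLCA1 was at 0.38 and no longer at p under 0.05. The other secreted goblet products AGR2, TFF3 and TFF2 were at -0.12 ± 0.25, 0.03 ± 0.18 and 0.00 ± 0.17, and the sign of TFF2 turned with lane in the fit (-0.06). The median of the mucus list was 0.03 and was -0.01 with library totals in place of TMM factors. JAM2 and CLCA1 each lost p under 0.05 in some of the fits that left out 1 calf.

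**Figure D5:**
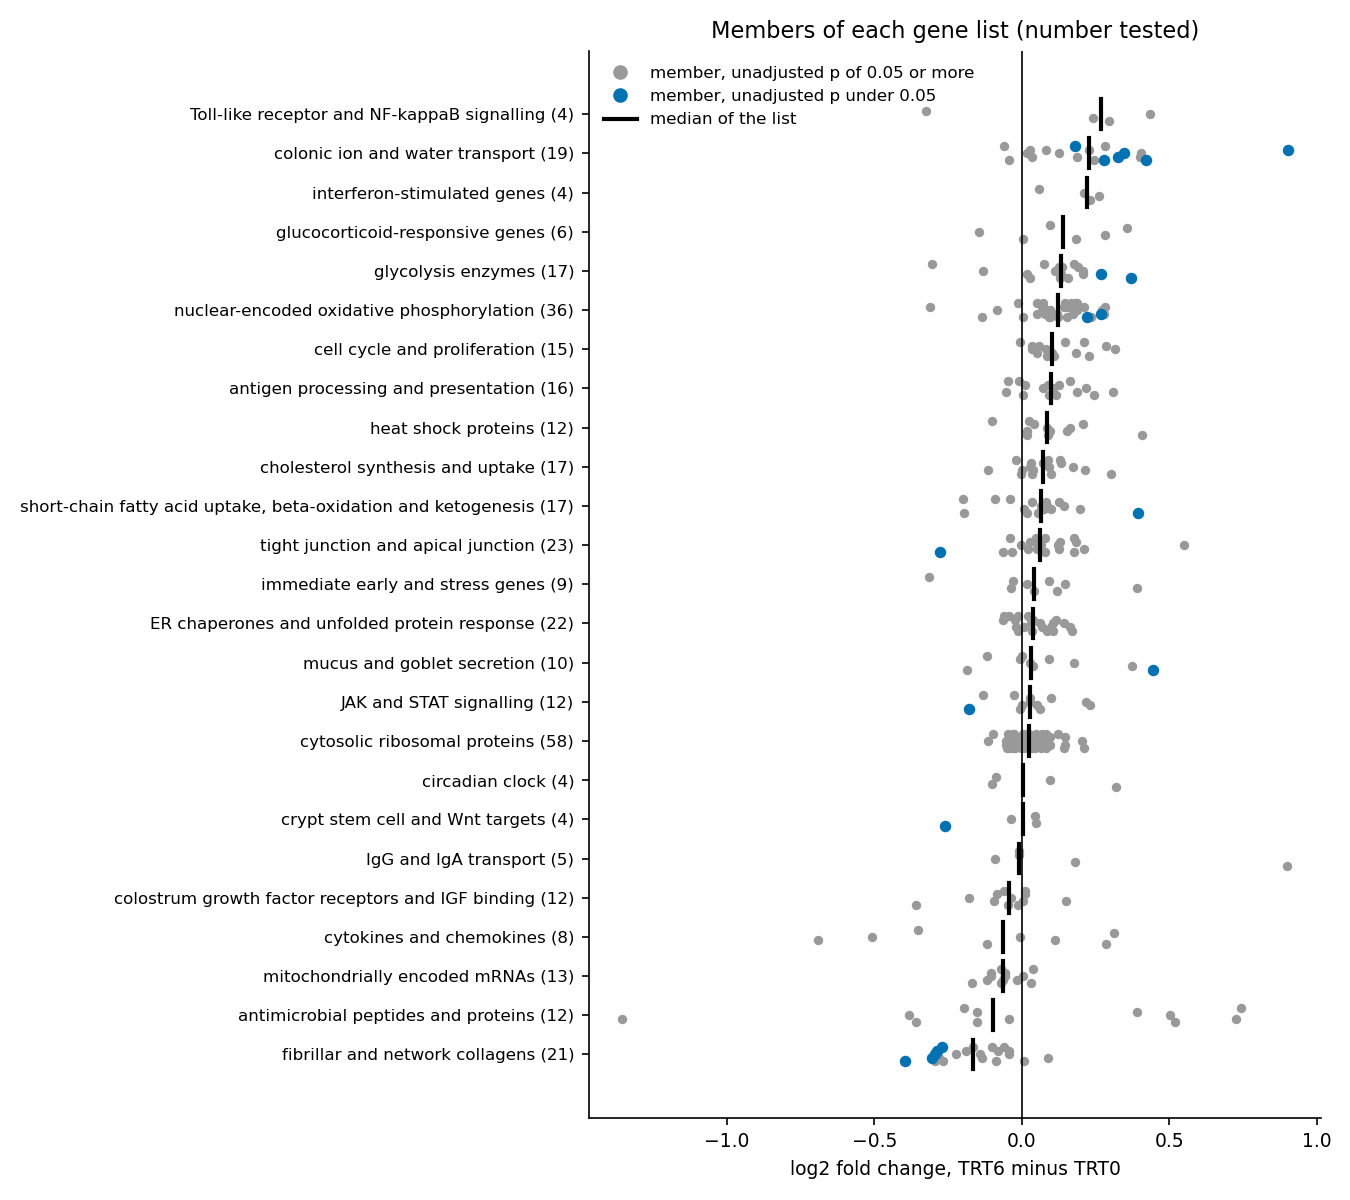
Points are fitted log2 fold changes (TRT6 minus TRT0) of the tested members of each of the 25 pathway lists, with the number tested in brackets, blue where the unadjusted p is under 0.05, and bars are list medians. Ion and water transport (median 0.23) and the collagen list (median -0.17) hold the most blue points, 6 and 5, and the other lists hold 2 or fewer.

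Immune lists were thinly covered, because symbols were at hand for only part of their genes. Of the 8 mucosal immunity genes that the study singled out, 1 had a symbol at hand. This was STAT3, which relays interleukin signals to the nucleus, with 196 to 386 CPM (median 264) in TRT0 and 206 to 352.5 CPM (median 238) in TRT6 and a 95% interval of -0.25 to 0.20. IL10, NFKB1, TNF, TLR2, TLR4, CLDN4 and PGLYRP1 had no symbol at hand. Their values could not be picked out, though they may be among the genes tested. Of 4 tested genes of Toll-like receptor and NF-kappaB signalling, NFKB2 (0.30 ± 0.15), the kinase IKBKB (0.24 ± 0.14) and the inhibitor NFKBIB (0.43) were fitted higher and LBP (-0.32) lower, with 0 of them at p under 0.05. With lane in the fit NFKB2 was at 0.36 and IKBKB at 0.35, both at p under 0.05.

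Antimicrobial genes varied widely between calves. Of 12 tested, 5 were fitted higher and 7 lower in TRT6, 0 at p under 0.05, and 7 had an interval inside 2-fold. S100A12, a calgranulin of neutrophils, had 15.1 to 93.8 CPM (median 26.7) in TRT0 and 18.4 to 76.7 CPM (median 48.9) in TRT6. For S100A12, 8 of 9 TRT6 calves lay above the TRT0 median, but the highest calf of all was a TRT0 calf, and the 95% interval was -0.01 to 1.05 around 0.52. S100A12 was at 0.80 without TRT0 replicate 6, its highest calf, and at 0.50 with lane in the fit, where it was at p under 0.05. PLA2G2A, a secreted phospholipase that attacks bacterial membranes, had 687 to 1345 CPM (median 978.5) and 236 to 1515 CPM (median 808), with an interval of -0.68 to 0.37 around -0.15. Of 8 cytokines and chemokines, 0 were at p under 0.05. CXCL14 (0.29 ± 0.16) and CXCL12 (-0.12 ± 0.15) were the member of lowest p and the most abundant member. The 4 interferon-stimulated genes were all fitted higher with a median of 0.22, and 13 of 16 genes of antigen presentation were fitted higher with a median of 0.10. In either list 0 were at p under 0.05, and 2088 of the 3749 tested genes with a symbol were fitted higher. IL6ST, the shared receptor subunit of interleukin 6 signals, was fitted lower (-0.18 ± 0.08), the only 1 of 12 JAK and STAT genes at p under 0.05, and JAK1 was at 0.03 ± 0.09.

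The receptors and binding proteins of colostrum growth factors differed little. Of 12 tested genes of growth factor receptors and IGF binding, 0 were at p under 0.05 and all 12 intervals lay inside 2-fold. IGF2, a fetal growth factor, had 368 to 862.5 CPM (median 572) in TRT0 and 280.1 to 744 CPM (median 373) in TRT6. In IGF2, 4 TRT6 calves lay below the lowest TRT0 calf, but the log2 fold change was -0.36 (95% interval -0.75 to 0.03) and -0.18 with lane. The receptors INSR, IGF2R, ERBB2 and ERBB3 lay between -0.04 and 0.01. Of 15 cell cycle genes, 14 were fitted higher (12 with lane), beside 2088 of the 3749 tested genes with a symbol. These 15 genes had a median of 0.10 and 0 at p under 0.05. The median was 0.04 without TRT6 replicate 2, the calf highest in the mitotic kinesin KIF11 (67.2 CPM, beside 52.4 for the next TRT6 calf). The crypt marker OLFM4 was at 0.04 ± 0.18, and CD44, a hyaluronan receptor and Wnt target, at -0.26 ± 0.12, the only 1 of 4 crypt genes at p under 0.05. CD44 and IL6ST each lost that p in some of the fits that left out 1 calf, and IL6ST also with lane in the fit.

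The remaining lists bear on the state of the calf at sampling, and none had a member at p under 0.05. The 6 tested glucocorticoid-responsive genes had a median of 0.14, with the chaperone FKBP5 at 0.18 ± 0.10. The medians were 0.04 for 9 immediate early and stress genes, 0.00 for 4 circadian clock genes, 0.04 for 22 genes of ER chaperones and the unfolded protein response, 0.09 for 12 heat shock genes and 0.07 for 17 genes of cholesterol synthesis and uptake. The members of lowest p or highest level were MCL1 (0.12) and BTG1 (0.02, and -0.01 with library totals), GLUL (-0.14), BHLHE40 (0.32), HERPUD1 (0.17) and CANX (0.12), CRYAB (0.41) and HSPA8 (0.16), and ACAT2 (0.30) and SREBF2 (0.09).

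Whether the difference between TRT6 and TRT0 depended on dam parity was tested as an interaction. By edgeR's quasi-likelihood test 0 of 14175 genes were called (0%), and 285 (2.01%) had an unadjusted p under 0.05. The lowest adjusted p was 0.153 (edgeR's quasi-likelihood test, Benjamini-Hochberg) for RGS2 (ENSBTAG00000034366), a brake on G protein signalling. In H calves RGS2 had 0 to 1.44 CPM (median 0.84) in TRT0 and 3.14 to 10.3 CPM (median 6.48) in TRT6. In C calves it had 4.04 to 10.2 CPM (median 7.55) in TRT0 and 2.37 to 6.06 CPM (median 3.44) in TRT6. The 4 TRT6 calves lay above the 4 TRT0 calves in H, and the ranges overlapped in C. The log2 fold change was 3.02 ± 0.66 in H and -0.93 ± 0.40 in C, a difference (C minus H) of -3.95 ± 0.77. No RGS2 value exceeded 23 counts, and 1 of the TRT0 calves had 0, so these values rest on few reads. The lanes were unequal here as well, with both lane 1 TRT0 calves being H calves. CCL14, a chemokine of tissue vessels, had an interaction of 1.24 ± 0.54, at an unadjusted p under 0.05. Its medians in H were 4.39 CPM in TRT0 and 2.71 CPM in TRT6, and in C they were 7.68 and 10.5 CPM. The study had already called RGS2 and CCL14 in contrasts that use these calves, so their p here is not independent evidence. One of those contrasts was TRT6 against TRT0 within H for RGS2. There the adjusted p was 0.358 here (edgeR's quasi-likelihood test, Benjamini-Hochberg).

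The interaction count depended on the tool. DESeq2, edgeR's likelihood ratio test and the quasi-likelihood test without a filter each called 4 genes, RGS2 with ENSBTAG00000045632, ENSBTAG00000046537 and ENSBTAG00000046695, which were named after their values were seen. The latter 3 were high in a few calves and near the floor in the rest. ENSBTAG00000046695 stood at 2128 CPM in 1 TRT0 calf of H and at 197, 757 and 1397 CPM in 3 TRT6 calves of C, and at 9.75 CPM or less in the other 14. ENSBTAG00000045632 stood at 782 and 1464 CPM in 2 TRT6 calves of C, at 105 and 109 CPM in 2 TRT0 calves of H, and at 15.6 CPM or less in the others. A fold fitted to such values describes these few calves.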

How the data were processed

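Total RNA from colon was made into TruSeq RNA v2 libraries and sequenced. Per the study's methods and the submitters' processing notes, the authors aligned reads with Tophat2 2.1.1 to the UMD 3.1 genome, used SAMtools 1.4, and counted reads per Ensembl gene with HTSeq-count, which left out reads of more than 1 gene. The deposited values are raw counts, and the strand setting is not given in the sources used here. Genes that share reads with a near-identical copy or an antisense gene are therefore uncertain. Gene symbols (4046 of 24616 identifiers) and dam parity came from the study's supplementary tables, and lane from the run names in the labels. The symbol tables favour abundant genes, so gene lists were covered in part. A listed gene or marker is said to have an identifier where its symbol could be matched to one. Those without a match may still be among the genes tested. No genome sequence was used.

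Counts were scaled by edgeR's TMM factors (0.883 to 1.15) and fitted in edgeR 4.0.16 (R 4.3.3) by its quasi-likelihood test, with treatment and dam parity as terms, over the 18 calves. Genes needed a CPM of at least 1 in 5 of 9 calves in both treatments. Errors are Wald SE and intervals from that fit, and ± values are SE. The interaction was fitted over the 4 groups of treatment and parity. P-values were adjusted by Benjamini-Hochberg over all genes tested. DESeq2 1.42.0 and limma 3.58.1 (voom), other scaling and filters, lane, all 27 calves and each calf left out were alternatives. The exact permutation test (17640 rearrangements within parity) used Python 3.11.15. The text names the 10 genes of lowest p in each direction that have a symbol, genes without a symbol among the 5 lowest p, the representative genes of the study with RGS2, CCL14, FCGRT and PIGR, any gene called, and each list's member of lowest p and of highest level. Of the 85 genes so chosen, 14 were added after their values were seen, and some are not reported here. The comparison, its members and the gene lists were chosen with earlier results of these data known. Replicate numbers follow accession order. Depth sets precision: 1163791 to 2949345 counts per calf. The study reports far more reads per sample than these deposited totals, and its methods do not account for the gap. The floors and intervals here are those of the deposited counts and not of the study's full reads.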

Additional observations from a re-analysis of the deposited data

Results flagged for a closer look

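Both the highest and the lowest calf were examined in 170 sets of 9 calves (1 gene in 1 treatment). In 19 sets a calf, in each case the highest, stood apart from the other 8 by a gap above Dixon's critical value of 0.493 of the range. Chance alone marks about 1 in 20 such sets, and several of the genes share a calf.

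TRT6 replicate 2 (H, 1264884 counts, among the shallowest) stood apart in this way in 6 genes, and was also the highest TRT6 calf in PFKP and TCF19 without such a gap. HN1L stood at 87.8 CPM there beside 71.2 CPM in the next calf, the mitotic kinesin KIF11 at 67.2 beside 52.4 CPM, and ESM1 at 7.91 beside 4.30 CPM. The ER chaperone CANX stood at 938 beside 726 CPM, the cytosolic chaperone HSPA8 at 1400.0 beside 969 CPM, and ACAT2 of cholesterol synthesis at 70.4 beside 44.8 CPM. TRT6 replicate 8 (C) was highest in the matrix genes COL3A1, with 6430 CPM beside 4920, and FBN1, with 723 CPM beside 501, and in ENSBTAG00000002092, with 52.4 CPM beside 28.1. Without that calf ENSBTAG00000002092 was called (log2 fold change -1.22, adjusted p of 0.0938 by edgeR's quasi-likelihood test). TRT6 replicate 9 (C) had 652 CPM of ENSBTAG00000046537 beside 37.4.

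In TRT0, replicate 1 (C) was highest in the proliferation gene TOP2A, with 184 CPM beside 164, and in ACAT2, with 47.3 CPM beside 30.8. Replicate 2 (H) had 186 CPM of the survival factor MCL1 beside 160.0, and 159 CPM of ENSBTAG00000046537 beside 41.0. Replicate 4 (C) was highest in the transport genes SLC26A3, with 135 CPM beside 98.5, and CA1, with 140.0 CPM beside 59.2. Replicate 6 (H) had 93.8 CPM of S100A12 beside 42.0, 254 CPM of BTG1 beside 217, and 2130 CPM of ENSBTAG00000046695 beside 9.75.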

How the results depend on the processing

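The count of 0 called genes held in all fits but 2: it was 1 with all 27 calves and lane in the fit, a setting chosen after the data were seen, and it ranged from 0 to 1 over the fits that left out 1 calf (1 without TRT6 replicate 8). Genes at an unadjusted p under 0.05 numbered 807 without a filter, where 21807 genes were tested, and 370 to 703 with 1 calf left out. The interaction called 4 genes by DESeq2, 4 by edgeR's likelihood ratio test, 4 without a filter, 1 with the newer edgeR dispersion method, and 0 to 1 with 1 calf left out (RGS2, without TRT0 replicate 1 or TRT6 replicate 5 or 7). The causes were not tested.

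Of the 85 genes chosen, 73 kept their sign in every setting. Reversals elsewhere were near 0, or in genes high in few calves. With lanes 1 and 2 only, STAT3 was at 0.039, PLA2G2A at 0.060, ND3 at 0.060, ENSBTAG00000046695 at -2.56 and ENSBTAG00000046537 at -1.92. With lane, TFF2 was at -0.0625, BTG1 at -0.0022 and ENSBTAG00000046695 at -2.65. With library totals, TFF2 was at -0.024 and BTG1 at -0.011. By limma-voom, TFF2 was at -0.023 and ENSBTAG00000046537 at -0.92. TFF2 was at -0.011 without a filter and at -0.0011 with a CPM of 1 in all 18 calves. With all 27 calves and lane, TFF2 was at -0.054, BTG1 at -0.023 and COX1 at -0.0075.

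With 1 calf left out, the log2 fold change ran from -0.078 to 0.032 for STAT3, -0.046 to 0.20 for CCL14, -0.073 to 0.031 for FCGRT, -0.15 to 0.087 for PIGR, -0.11 to 0.10 for TFF2, -0.081 to 0.16 for OLFM4, -0.033 to 0.069 for BTG1, -0.015 to 0.10 for COX1 and -1.45 to 2.16 for ENSBTAG00000046537. No paired analysis was possible because replicate numbers only follow accession order. Lane is unevenly shared between the treatments, and genes under 5 CPM are little constrained at this depth.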

Other observations

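Marker sums of the other cell types of the colon wall were compared in the same way, as descriptions with no test. The ratio of mean summed CPM (TRT6 over TRT0) was 0.996 for 4 goblet cell markers, 0.954 for 6 enteroendocrine markers, 1.03 for 5 endothelial markers and 0.973 for 7 markers of enteric neurons and glia. Immune cell types were represented by few markers, with a ratio of 0.879 for 3 T and NK cell markers, 0.968 for 3 macrophage and dendritic cell markers and 0.96 for 3 mast cell markers. S100A12, the 1 neutrophil marker with an identifier, had a ratio of 1.41. The 2 red blood cell markers had a ratio of 1.43 at sums of 0.423 to 9.89 CPM, and 5 markers of small intestinal epithelium had a ratio of 0.955. Markers of B cells and of interstitial cells of Cajal had no symbol at hand and could not be picked out.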
